A study of Mus musculus with 16 samples.

Results

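Embryonic sensory neurons treated with a compound that blocks DLK, the dual leucine zipper kinase, were compared with neurons given only the solvent DMSO, in cultures without nocodazole. The comparison used 8 of the 16 RNA libraries of the study, 4 from each treatment, chosen by their treatment labels alone. All cultures were of dorsal root ganglion cells from embryos of the outbred CD1 mouse stock, with no mutation or transgene named in the labels, kept in medium with nerve growth factor at 50 ng/ml and with uridine and fluorodeoxyuridine against dividing cells. In the inhibitor group the cells received 500 nM GNE3511, the DLK inhibitor, on day 6 in vitro, and DMSO 15 min later for 16 h. In the DMSO group the cells received DMSO at both steps. The other 8 libraries came from cultures given 200 nM nocodazole at the second step, with or without the inhibitor at the first. They serve below as a second measurement of the inhibitor change, and they shared the fit that estimated the spread between libraries.

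The question was which transcripts depend on DLK signalling in neurons that had not been exposed to a microtubule drug. DLK, the product of Map3k12, is a mixed-lineage MAP kinase kinase kinase of axons. It acts through the kinases MKK4 and MKK7 on the JNK family, which phosphorylates Jun and other transcription factors, and after axon injury it carries the damage signal to the nucleus of sensory neurons, where it contributes both to regrowth and to death. Dissociation and culture cut the axons of these neurons, so cultured ganglion neurons are not neurons that have never been injured. GNE3511 is a competitive kinase inhibitor, and as 1 compound was used at 1 dose, its action on DLK cannot be told apart from any action on further kinases.

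The libraries held between 31295392 and 39932332 counts in the inhibitor group and between 33166353 and 43321421 in the DMSO group. The neuronal markers Rbfox3, Elavl4, Prph, Isl1 and Avil were present in all 8, while Sox10, Cdh19, Cdh5, Pecam1 and Ptprc, defining markers of glia, endothelium and leukocytes, stayed under 1 CPM (counts scaled to library size) in all 8. The summed level of 19 pan-neuronal markers ran from 11360 to 13480 CPM in the inhibitor group and from 13570 to 14650 CPM in the DMSO group. That of 15 fibroblast markers ran from 17.2 to 21.3 CPM and from 22.6 to 26.0 CPM in the same order, and 0 of the 11 tested were called. Other markers of Schwann cells and satellite glia were well above 1 CPM, and the summed level of that list ran from 1189 to 1845 CPM after the inhibitor and from 1713 to 2151 CPM in DMSO. Of its 10 tested members 3 fell and the other 7 did not pass (median log2 change -0.37), and these 3, Cnp, Mbp and Pmp22, were not called with the term for sample number described below (edgeR adjusted p = 0.151, 0.108 and 0.177). Cnp had 20.5 to 23.6 CPM after the inhibitor and 25.8 to 32.6 CPM in DMSO, Mbp 46.7 to 60.1 CPM and 64.2 to 74.7 CPM, Pmp22 6.26 to 7.70 CPM and 9.65 to 11.7 CPM, and S100b, which was not called, 38.9 to 92.2 CPM and 85.7 to 104.8 CPM, in the same order. In bulk libraries, fewer cells of a type and less RNA per cell cannot be told apart. Transcripts of mitochondrial genes, used here as a sign of RNA quality, made up 1.08, 1.39, 1.78 and 1.06% of counts in inhibitor replicates 1 to 4, against 1.07, 0.834, 0.909 and 0.765% in DMSO replicates 1 to 4 (exact two-sided permutation p = 0.0571, where 0.0286 is the smallest possible). The nuclear RNA Malat1 ranged from 8796 to 11570 CPM after the inhibitor and from 6161 to 8398 CPM in DMSO. Whether these differences play a part in the gene changes below was not tested. The labels do not say that replicates came from separate cultures or litters, so the p-values reflect the spread among these libraries only, and that spread may be technical.

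Of 19156 genes tested, 1107 were higher after the inhibitor (5.78%) and 1387 were lower (7.24%) at an edgeR adjusted p under 0.05. Of the 14106 protein-coding genes alone, 5.6% were higher and 9.53% lower. These shares are the background for the counts by gene list below. The changes were mostly small: the median absolute log2 change of the called genes was 0.41 and the 90th percentile was 1.21. A change of at least 2-fold was called for 222 genes that were higher (1.16%) and 147 that were lower (0.767%). The groups did not overlap in CPM for 10.1% of all tested genes with higher and 11.6% with lower values after the inhibitor, and for 2260 of the 2494 called genes.

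**Figure D1:**
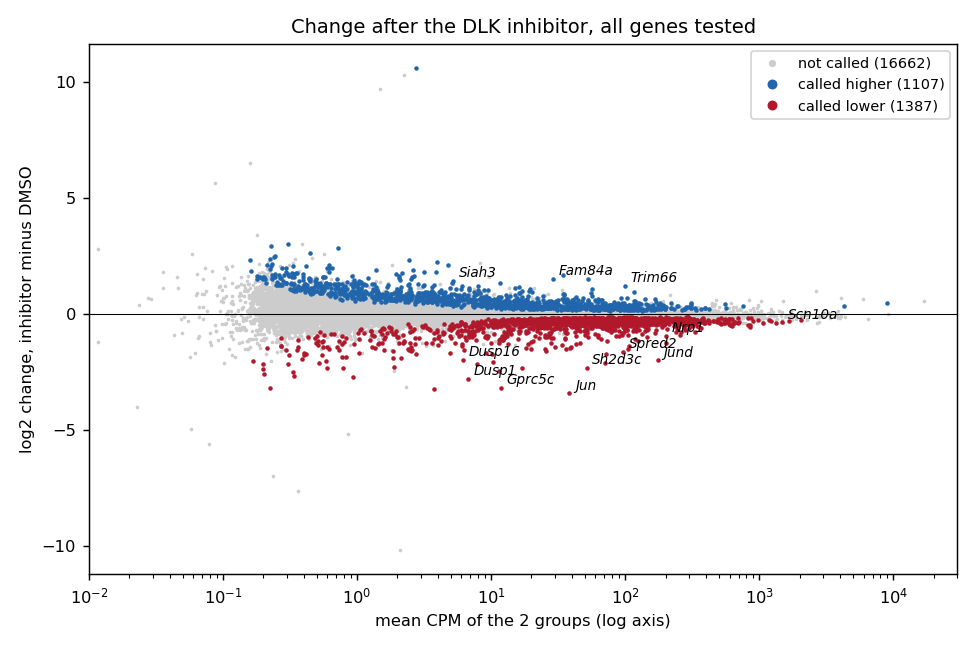
Log2 change (inhibitor minus DMSO) of the 19156 tested genes against their mean CPM in both groups on a log axis; blue points were called higher (1107), red points lower (1387), grey points were not called, and 5 genes lie left of the axis. Jun, Gprc5c and Dusp1 have the lowest changes among the labelled genes, and Fam84a and Siah3 have the highest.

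These counts changed with the libraries included and with a term for sample number. Without inhibitor replicates 1, 2 or 3 the number of higher genes was 643, 490 or 515, and without DMSO replicates 2, 3 or 4 it was 588, 730 or 518. The number of lower genes was 752 without inhibitor replicate 2, 775 without inhibitor replicate 3 and 756 without DMSO replicate 4. At the 2-fold limit, 116 genes were higher without inhibitor replicate 2 or DMSO replicate 4, 138 without inhibitor replicate 3 and 346 without inhibitor replicate 4, and 92 and 223 were lower without inhibitor replicates 3 and 4. Scaling by upper quartiles in place of trimmed means gave 1433 higher and 1098 lower genes. A fit of the 8 libraries without nocodazole alone gave 1218 higher and 1724 lower genes. The labels number the samples 1, 5, 9 and 13 in the inhibitor group and 2, 16, 18 and 20 in the DMSO group, and they do not say what the numbers stand for. With nocodazole the numbers were 7, 11, 15 and 19 with the inhibitor and 6, 8, 10 and 12 without it. Numbers over 13 thus lay only in the DMSO group without nocodazole and only in the inhibitor group with it. The difference between the pairs is therefore uneven in sample number as well. With a term for numbers over 13, added after the data were seen, 133 genes were higher and 240 lower. All 2494 genes kept their direction with that term, and 372 of them were still called. The term itself was called for 0 genes by edgeR, with 1150 at an unadjusted p under 0.05.

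The transcript of the targeted kinase did not differ detectably. Map3k12 had 127, 118, 118 and 118 CPM in the inhibitor libraries, against 116, 115, 128 and 131 CPM in the DMSO libraries, a log2 change of -0.02 ± 0.064 (SE). As the compound acts on the protein, this value does not check the treatment labels. The relays and effectors of the pathway were likewise not called: Map2k4 and Map2k7, which encode MKK4 and MKK7, changed by -0.09 ± 0.064 and 0.01 ± 0.043 on the log2 scale, and the JNK genes Mapk8, Mapk9 and Mapk10 by -0.06 ± 0.057, -0.02 ± 0.065 and -0.28 ± 0.11.

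Among 14 kinases of the mixed-lineage and DLK branch, 2 rose and 2 fell, with 1 to 3 higher and 0 to 3 lower by edgeR when single libraries were left out. With 5.78% of all tested genes higher and 7.24% lower, these counts are too small to set the list apart, and with the term for sample number 0 were called in either direction. Map3k9, which encodes the related mixed-lineage kinase MLK1, had 135, 147, 142 and 119 CPM in the inhibitor libraries, against 109, 105, 104 and 106 CPM in the DMSO libraries, without overlap (log2 change 0.35 ± 0.062, edgeR adjusted p = 0.00186, and 0.0749 with the term). Map3k13, which encodes LZK, the closest relative of DLK, was slightly lower (log2 change -0.23 ± 0.062, edgeR adjusted p = 0.0256), but the call was lost when any 1 library other than inhibitor replicate 4 or DMSO replicate 1 was left out (highest adjusted p 0.074) and with the term (0.248). Of 16 genes listed as JNK kinases, activators and scaffolds, 5 fell and the other 11 did not pass, against 7.24% lower over all tested genes. The list also holds p38 kinases. The 5 included Sh3rf1, which encodes the JNK scaffold POSH (52.4 ± 5.72 CPM after the inhibitor and 69.8 ± 4.21 CPM in DMSO, SD, n = 4 each). Also among them were Mapk11, which encodes the p38β kinase (38.8 ± 1.81 CPM and 50.6 ± 2.35 CPM in the same order), and Mapk12, another p38 kinase gene. The call of Mapk12 (edgeR adjusted p = 0.0467) was lost when any library of the comparison was left out (0.0523 to 0.117). This list counted 2 without inhibitor replicates 2 or 3 and without DMSO replicates 2, 3 or 4, and also 2 with upper quartile scaling. With the term for sample number it counted 1, the p38 gene Mapk11 (edgeR adjusted p = 0.0226), while Sh3rf1 had an adjusted p of 0.0696.

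Transcription factors at the end of the JNK pathway were among the genes that fell most. Jun, the main nuclear substrate of JNK and a subunit of AP-1, had 1.96, 0.843, 1.5 and 21.1 CPM in the inhibitor libraries, against 38.9, 56.5, 94.2 and 91.6 CPM in the DMSO libraries. Inhibitor replicate 4 stood well above the other 3, and even so all 4 lay below all DMSO libraries (log2 change -3.43 ± 0.65, edgeR adjusted p = 0.00319). With the term for sample number the adjusted p of Jun was 0.109. Jund, its close paralog, was at 55.9, 49.2, 56.8 and 119 CPM after the inhibitor and at 228, 261, 299 and 336 CPM in DMSO (log2 change -2.0 ± 0.23, edgeR adjusted p = 0.000126, and 0.00732 with the term). Creb5, a leucine zipper factor that pairs with Jun, was at 4.32, 2.24, 3.41 and 12.4 CPM after the inhibitor and at 24.6, 27.9, 32.1 and 29.3 CPM in DMSO (log2 change -2.33 ± 0.34, edgeR adjusted p = 0.000438).

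Of 21 tested genes of the Jun, Fos, ATF and Maf families, 6 fell and 1 rose, against 7.24% and 5.78% of all tested genes. With the term for sample number 3 and 1 were called. The injury factor Atf3 was low in both groups and was not called, with 1.13, 2.35, 2.41 and 1.47 CPM in the inhibitor libraries, against 2.36, 1.52, 8.48 and 4.65 CPM in the DMSO libraries, and the groups overlapped (log2 change -1.26 ± 0.43, edgeR adjusted p = 0.0628). Fos was near the limit of detection in both groups, with 0.0275 to 0.157 CPM after the inhibitor and 0.0931 to 0.253 CPM in DMSO.

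**Figure D2:**
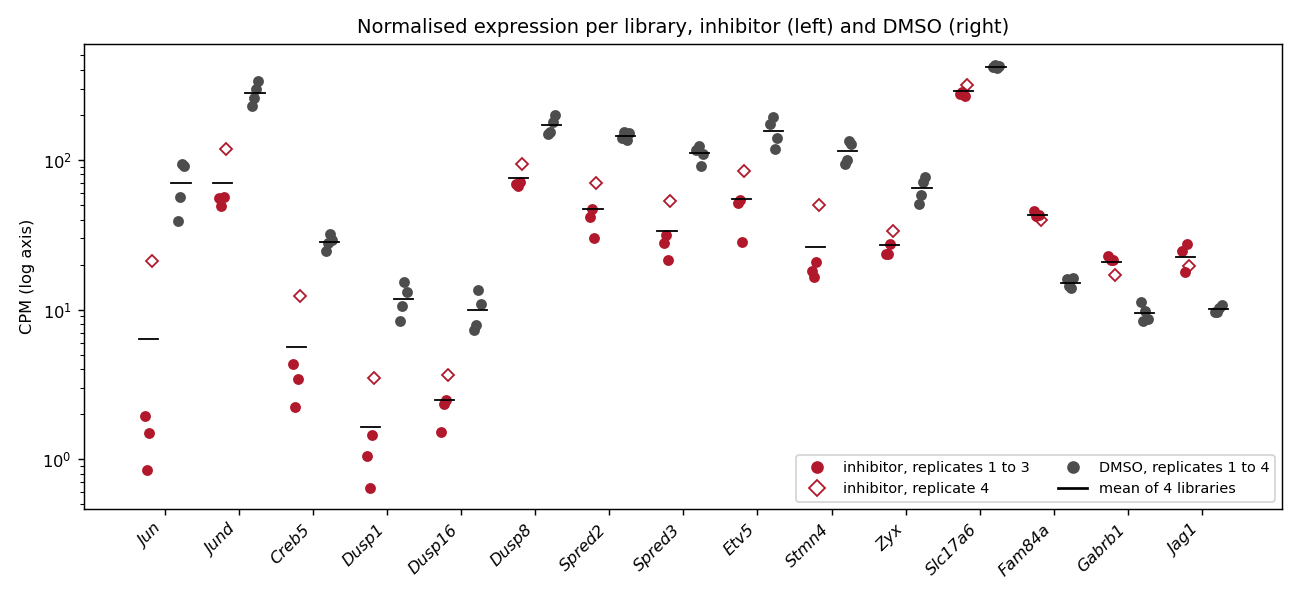
CPM (log axis) of 15 genes in each library, inhibitor in red on the left of each pair and DMSO in grey on the right, with open diamonds for inhibitor replicate 4 and bars for the mean of 4 libraries; heights of different genes are not comparable, as CPM are not divided by gene length. In all 12 lower genes inhibitor replicate 4 is the inhibitor library nearest to DMSO, and Fam84a, Gabrb1 and Jag1 lie higher after the inhibitor in all 4 libraries.

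The list with the highest share of calls encodes MAP kinase phosphatases, enzymes that remove the activating phosphates from JNK, p38 and ERK and whose genes are known to be switched on by the kinases they restrain. Of 15 tested members, 8 fell and the other 7 did not pass the test, against 7.24% lower over all tested genes. The median log2 change was -0.48 (0.03 over all tested genes). The count was 7 or 8 with each library of the comparison left out and 5 with the term for sample number. Dusp1, which acts on JNK, p38 and ERK, had 1.05, 0.639, 1.44 and 3.47 CPM in the inhibitor libraries, against 8.34, 10.5, 15.3 and 13.1 CPM in the DMSO libraries, a log2 change of -2.81 ± 0.34 (edgeR adjusted p = 0.000176). Dusp16, whose product prefers JNK, had 1.51, 2.35, 2.47 and 3.65 CPM after the inhibitor and 7.25, 7.88, 13.5 and 10.9 CPM in DMSO. Dusp8, a phosphatase of JNK and p38 abundant in neurons, had 69.6, 67.4, 70.9 and 94.5 CPM after the inhibitor and 150, 154, 180 and 201 CPM in DMSO. In Dusp1, Dusp16 and Dusp8 the highest inhibitor library was inhibitor replicate 4, and it lay below the lowest DMSO library.

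Dusp8 had one of the smallest p-values of all genes tested (log2 change -1.18 ± 0.11, edgeR adjusted p = 3.3e-05, highest 0.000431 with a library left out). Dusp10, another phosphatase of JNK and p38, fell to 10.1 ± 5.32 CPM after the inhibitor, against 29.5 ± 3.06 CPM in DMSO (SD, n = 4 each), with an adjusted p of 0.00181 that became 0.0641 with the term for sample number. Dusp6, which is specific for ERK, had 2.84, 4.42, 2.47 and 8.89 CPM in the inhibitor libraries, against 16.0, 24.6, 10.6 and 11.2 CPM in the DMSO libraries. The groups of Dusp6 did not overlap, but its call (edgeR adjusted p = 0.0378) was lost when any 1 library other than inhibitor replicate 4 or DMSO replicate 3 was left out, with adjusted p from 0.0600 to 0.114, and with the term (0.143).

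The cyclic AMP response element TGACGTCA, which CREB and ATF factors and Jun-ATF pairs can bind, was searched for in promoter windows. Before the start site it was found in Dusp1 and Dusp8, and no match was found there for Dusp16, Dusp10 or Dusp6. The window ran from 250 bases before to 50 after each start site in RefSeq (GRCm38.p6), both strands were read, and 11776 tested genes had one; a gene counted if any of its windows held the letters. The element was in 10.5% of the genes called at least 2-fold lower (11 of 105), in 7.16% of all genes called lower (76 of 1062), in 2.10% of the genes called higher (14 of 668) and in 3.44% of all. The AP-1 letters TGACTCA were in 8.57% of the genes called at least 2-fold lower (9 of 105), in 4.52% of all called lower, in 3.44% of those called higher and in 4.34% of all. The letters TGATGNAA of the ATF4 response element were in 7.22% of the genes called at least 2-fold higher (7 of 97), 3.74% of all called higher, 2.35% of those called lower and 2.77% of all, the EGR letters GCGTGGGCG in 1.20, 0.942 and 1.38%, and the serum response element (CArG box) in 1.5, 1.51 and 1.61%. The CArG box was in 2.86% of the genes called at least 2-fold lower (3 of 105) and the EGR letters in 0.952% (1 of 105). Distal elements and binding itself were not measured.

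The 160 bases before the start site are printed for 5 genes that fell, chosen after their values were seen, to show where the letters lie. They are given 5′ to 3′ on the strand of the gene, with the matched letters in capitals. The Dusp8 window (chr7:142095285-142095444, minus strand) holds the element at 107 and at 63 bases before the start. The windows of Dusp1 (chr17:26508473-26508632, minus strand), Creb5 (chr6:53287143-53287302, plus strand) and Scg2 (chr1:79440027-79440186, minus strand) hold it at 143, 45 and 68 bases before the start; a second start of Creb5 has the AP-1 letters instead. The Zyx window (chr6:42349668-42349827, plus strand) holds the AP-1 letters, here on the reverse strand, at 121 bases before the start.
Dusp8: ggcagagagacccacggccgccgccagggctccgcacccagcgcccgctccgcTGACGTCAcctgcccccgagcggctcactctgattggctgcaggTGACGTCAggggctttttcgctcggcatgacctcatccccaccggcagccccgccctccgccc
Dusp1: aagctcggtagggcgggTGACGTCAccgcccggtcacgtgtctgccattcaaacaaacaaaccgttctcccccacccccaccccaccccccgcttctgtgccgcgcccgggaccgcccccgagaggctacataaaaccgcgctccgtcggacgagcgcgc
Creb5: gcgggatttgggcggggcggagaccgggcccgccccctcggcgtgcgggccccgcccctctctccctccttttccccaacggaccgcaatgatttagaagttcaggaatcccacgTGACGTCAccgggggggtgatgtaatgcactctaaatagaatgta
Scg2: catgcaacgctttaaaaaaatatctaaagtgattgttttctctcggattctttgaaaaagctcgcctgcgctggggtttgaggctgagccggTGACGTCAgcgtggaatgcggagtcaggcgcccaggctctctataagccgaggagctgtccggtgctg
Zyx: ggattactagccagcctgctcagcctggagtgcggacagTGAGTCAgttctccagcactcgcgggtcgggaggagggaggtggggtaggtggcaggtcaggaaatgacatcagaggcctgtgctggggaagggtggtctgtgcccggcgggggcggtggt

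Feedback genes of the ERK pathway fell alongside. Sprouty and Spred proteins restrain signalling from growth factor receptors to ERK, and the ETS factor Etv5 is transcribed in response to it. Of 15 tested genes of this kind, 6 fell and the other 9 did not pass the test, against 7.24% lower over all tested genes. The median log2 change was -0.34. The count was 5 without inhibitor replicate 3, 6 without each other library, and 3 with the term for sample number. Spred2 had 41.6, 46.7, 30.2 and 70 CPM in the inhibitor libraries, against 140, 154, 136 and 153 CPM in the DMSO libraries (log2 change -1.63 ± 0.24, edgeR adjusted p = 0.000488). Spred3 fell by 1.72 ± 0.29, Spry4 by 1.51 ± 0.34 and Etv5 by 1.51 ± 0.34 on the log2 scale, and the groups did not overlap in any of the 3. For Etv5 the values were 51.6, 54.3, 28.5 and 85.0 CPM after the inhibitor and 174, 193, 118 and 141 CPM in DMSO. With the term for sample number the adjusted p was 0.0112 for Spred2, 0.0128 for Spred3, 0.0405 for Etv5 and 0.0532 for Spry4.

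Immediate early genes are those that activity and growth factors switch on within minutes. Of 18 tested, 5 fell and the other 13 did not pass, against 7.24% lower over all tested genes. Without inhibitor replicate 1 or DMSO replicate 4, 3 were called lower. Egr1, a zinc finger factor downstream of ERK, had 0.248, 0.262, 0.501 and 0.430 CPM in the inhibitor libraries, against 0.280, 1.26, 2.00 and 1.64 CPM in the DMSO libraries, and DMSO replicate 1 lay within the inhibitor range. It was called (log2 change -1.88 ± 0.43, edgeR adjusted p = 0.00972) but not with the term for sample number (adjusted p 0.759). Ier5l, an immediate early gene of the IER family, fell to 8.24 ± 1.74 CPM after the inhibitor, against 16.9 ± 2.33 CPM in DMSO (edgeR adjusted p = 0.000245). Vgf, which encodes a precursor of secreted peptides, had 64.0, 142, 112 and 156 CPM after the inhibitor and 317, 334, 214 and 266 CPM in DMSO (edgeR adjusted p = 0.0250), and its call was lost without inhibitor replicates 1 or 3 or DMSO replicates 2 or 4 (highest adjusted p 0.0707).

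Among the 15 genes that fell most at 5 CPM or more were several outside the kinase pathways. Gprc5c, which encodes an orphan G protein-coupled receptor, had 0.936, 1.28, 2.04 and 5.07 CPM in the inhibitor libraries, against 11.7, 16.3, 29.6 and 27.8 CPM in the DMSO libraries, the second largest decrease after Jun (log2 change -3.18 ± 0.41, edgeR adjusted p = 0.000236). Sh2d3c, which encodes an adaptor that binds Eph receptors and Cas proteins, had 13.5, 8.49, 10.5 and 35.5 CPM after the inhibitor and 70.7, 78.3, 91.7 and 105 CPM in DMSO. Both genes had inhibitor replicate 4 as the highest of its group, and neither overlapped between groups. Genes of the cell surface and matrix were also in this set: Tnc, the matrix glycoprotein tenascin-C, fell to 3.93 ± 2.74 CPM, against 16.6 ± 3.22 CPM in DMSO, and Timp3, a secreted inhibitor of metalloproteinases, to 2.81 ± 1.74 CPM, against 12.8 ± 3.15 CPM. Cd248, known from stromal cells as endosialin, fell to 3.43 ± 2.56 CPM, against 19.4 ± 7.89 CPM (SD, n = 4 each). Tnc, Timp3 and Cd248 lost their calls with the term for sample number, with adjusted p of 0.0914, 0.128 and 0.102, and fibroblast markers were lower in sum beside them, as given above; the part of stromal cells in these 3 values was not tested.

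The decreases with the smallest p-values were moderate in size. Rapgef6, which encodes an activator of Rap GTPases, had 70.1, 68.2, 66.7 and 98.6 CPM in the inhibitor libraries, against 154, 152, 178 and 162 CPM in the DMSO libraries (log2 change -1.09 ± 0.099, edgeR adjusted p = 3.3e-05). Plat, which encodes tissue plasminogen activator, a protease released by growing axons, had 10.7, 12, 11 and 13.9 CPM after the inhibitor and 23.2, 23.7, 34.2 and 29.7 CPM in DMSO. Here inhibitor replicate 4 lay close to the other 3. Rps6kl1, Lzts3, Atp8b2 and Armcx3, which encode a ribosomal S6 kinase-like protein, a postsynaptic scaffold, a phospholipid flippase and a mitochondrial outer membrane protein, fell by 1.44 ± 0.14, 0.91 ± 0.089, 0.76 ± 0.081 and 0.56 ± 0.057 on the log2 scale. The 6 genes of this paragraph stayed called with every library left out and with the term for sample number.

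The clearest increase was in Fam84a, which had 45.9, 42.3, 43.1 and 39.4 CPM in the inhibitor libraries, against 16.0, 14.3, 14.0 and 16.2 CPM in the DMSO libraries. Its adjusted p was the smallest of all genes tested (log2 change 1.5 ± 0.11, edgeR adjusted p = 2.6e-06, and 6.83e-05 with the term for sample number). Inhibitor replicate 4 was again the inhibitor library nearest to DMSO. Siah3, a member of the Siah family of ubiquitin ligases, had 7.96, 8.20, 8.39 and 5.93 CPM after the inhibitor and 2.89, 3.02, 2.65 and 2.82 CPM in DMSO (log2 change 1.42 ± 0.18, edgeR adjusted p = 0.000224).

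The genes that rose most included Gabrb1, Kctd12, Jag1 and Atp2b4. Gabrb1, which encodes the β1 subunit of the GABA-A receptor, had 23.0, 21.6, 21.5 and 17.0 CPM in the inhibitor libraries, against 11.3, 8.35, 9.79 and 8.65 CPM in the DMSO libraries (log2 change 1.12 ± 0.11, edgeR adjusted p = 5.02e-05). Kctd12, which encodes an auxiliary subunit of GABA-B receptors, rose to 16.6 ± 2.34 CPM, against 6.60 ± 0.528 CPM in DMSO. Jag1, a Notch ligand, had 24.5, 17.9, 27.3 and 19.6 CPM after the inhibitor and 9.58, 9.58, 10.2 and 10.7 CPM in DMSO (log2 change 1.16 ± 0.13, edgeR adjusted p = 0.000126). Atp2b4, a plasma membrane calcium pump, rose to 76.4 ± 14.3 CPM, against 36.7 ± 4.96 CPM (SD, n = 4 each). In none of these 4 genes did the groups overlap, and all 4 stayed called with the term for sample number.

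Other increases were highest in inhibitor replicates 2 and 3. Trim66, a member of the TIF1 family of chromatin regulators, had 108, 175, 171 and 101 CPM in the inhibitor libraries, against 57.2, 36.9, 85.0 and 62.1 CPM in the DMSO libraries (log2 change 1.20 ± 0.23, edgeR adjusted p = 0.00366, and 0.0896 with the term for sample number). Cacna1e, the pore subunit of R-type calcium channels, had 125, 208, 174 and 107 CPM after the inhibitor and 87.1, 85.0, 84.6 and 64.0 CPM in DMSO (edgeR adjusted p = 0.00605, and 0.206 with the term). The same replicates had the highest shares of mitochondrial transcripts, and the part of that difference in these values was not tested.

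Targets of ATF4 and the integrated stress response, which slows translation under amino acid or folding stress and adjusts metabolism, held the largest share of increases among the lists. Of 54 tested, 14 rose and the other 40 did not pass, against 5.78% higher over all tested genes. The median log2 change was 0.25. The count fell to 7 without inhibitor replicate 2 or 3, to 8 without DMSO replicate 1, to 6 without DMSO replicate 2, and to 5 with the term for sample number. Ero1l, an oxidase of the endoplasmic reticulum, had 58.0, 84.9, 78.8 and 63.9 CPM in the inhibitor libraries, against 45.1, 42.5, 54.8 and 46.1 CPM in the DMSO libraries (log2 change 0.60 ± 0.12, edgeR adjusted p = 0.00481, and 0.117 with the term). Sesn2, a stress sensor that restrains mTORC1, had 38.3, 65.1, 60.6 and 39.9 CPM after the inhibitor and 31.5, 24.4, 38.2 and 34.8 CPM in DMSO; its call (edgeR adjusted p = 0.0166) was lost without inhibitor replicates 2 or 3 or DMSO replicate 2 (highest adjusted p 0.0694) and with the term (0.188). The core members Atf4, Asns and Ddit3 did not pass, with log2 changes of 0.27 ± 0.090, 0.11 ± 0.075 and 0.45 ± 0.27. Inhibitor replicates 2 and 3, which had the highest Ero1l and Sesn2, also had the highest mitochondrial shares, 1.39 and 1.78%, and the part of RNA or cell condition was not tested.

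Among 22 genes of JNK-linked death and the BCL2 family, 2 fell and 2 rose, shares near the 7.24% and 5.78% of all tested genes, and the increases were not called by edgeR without inhibitor replicate 2 or 3 or DMSO replicate 1 or 2. Bcl2, which opposes apoptosis, had 3.91, 5.26, 5.32 and 6.41 CPM after the inhibitor and 10.4, 10.5, 6.89 and 9.46 CPM in DMSO (log2 change -0.83 ± 0.19, edgeR adjusted p = 0.0103). It kept its call with every library left out and with the term for sample number, and the groups did not overlap. The death genes Bcl2l11, Bbc3 and Hrk, which JNK is known to induce in neurons deprived of nerve growth factor, did not pass, with log2 changes of -0.23 ± 0.17, -0.15 ± 0.17 and -0.16 ± 0.15.

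Of 30 tested regeneration-associated genes, those that sensory neurons are known to raise after axon injury, 8 fell and the other 22 did not pass. Over all tested genes 7.24% fell. The median log2 change of the list was -0.22, and 1 member was called with the term for sample number, Stmn4. Stmn4, a stathmin that binds tubulin, had 18.1, 16.5, 20.8 and 50.2 CPM in the inhibitor libraries, against 93.5, 101, 134 and 128 CPM in the DMSO libraries (log2 change -2.11 ± 0.27, edgeR adjusted p = 0.000234, and 0.00995 with the term). Its paralog Stmn2, which is required for axon growth, was not called (log2 change -0.14 ± 0.14). Chl1, an adhesion molecule of growing axons, had 73.8, 50.9, 46.6 and 86.5 CPM after the inhibitor and 130, 138, 106 and 119 CPM in DMSO (edgeR adjusted p = 0.00562, and 0.0921 with the term). Tnfrsf12a, the receptor for TWEAK that promotes neurite growth, was low throughout, with 1.05 to 1.66 CPM after the inhibitor and 2.02 to 4.17 CPM in DMSO (edgeR adjusted p = 0.0103, and 0.228 with the term).

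Of 37 tested genes of the actin cytoskeleton and targets of serum response factor, 10 fell and the other 27 did not pass. Over all tested genes 7.24% fell. The count was 6 without inhibitor replicate 3, 5 without DMSO replicate 4 and 2 with the term for sample number. Zyx, which encodes the focal adhesion protein zyxin and whose promoter is printed above, had 23.6, 23.5, 27.6 and 33.4 CPM in the inhibitor libraries, against 50.4, 58.7, 71.7 and 77.3 CPM in the DMSO libraries (log2 change -1.25 ± 0.16, edgeR adjusted p = 0.000224). The intermediate filament gene Vim, raised in neurons after axon damage, fell to 515 ± 43.4 CPM, against 740 ± 37.8 CPM in DMSO (SD, n = 4 each, edgeR adjusted p = 0.000239). Among 44 kinesin and dynein genes, 10 fell and 2 rose, against 7.24% and 5.78% of all tested genes, and 1 was called lower with the term. That gene was Kifc3, a minus-end-directed kinesin, with 11.5, 10.9, 10.2 and 13.4 CPM after the inhibitor and 19.8, 19.0, 20.2 and 23.1 CPM in DMSO.

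Of 57 axon guidance genes, 10 fell and 3 rose, against 7.24% and 5.78% of all tested genes, so the increases are no more frequent than the background. The count that fell was 4 without inhibitor replicate 2, 3 without inhibitor replicate 3, 6 without DMSO replicate 4 and 1 with the term for sample number, Nrp1. Nrp1, a receptor for class 3 semaphorins, had 146, 146, 96.2 and 164 CPM in the inhibitor libraries, against 271, 287, 250 and 261 CPM in the DMSO libraries (log2 change -0.95 ± 0.15, edgeR adjusted p = 0.000960, and 0.0225 with the term). Of 49 adhesion molecules of axons and synapses, 2 fell and 1 rose, shares no higher than those over all tested genes.

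Genes of synaptic release and of sensory function changed by modest amounts in both directions. Of 46 synaptic vesicle and release genes, 11 fell and 1 rose, against 7.24% and 5.78% of all tested genes. The count that fell was 7 without inhibitor replicate 2 or DMSO replicate 2, 6 without inhibitor replicate 3 or DMSO replicate 4, and 4 with the term for sample number. Slc17a6, the vesicular glutamate transporter VGLUT2, had 277, 287, 267 and 319 CPM in the inhibitor libraries, against 417, 431, 410 and 424 CPM in the DMSO libraries (log2 change -0.55 ± 0.086, edgeR adjusted p = 0.000802). Syt9, a calcium sensor of vesicle fusion, fell to 85.9 ± 13.9 CPM, against 142 ± 10.8 CPM in DMSO (SD, n = 4 each), and both genes kept their calls with the term. Scg2, which encodes secretogranin II of dense-core vesicles and whose promoter is printed above, had 31, 32.4, 32.5 and 46.9 CPM after the inhibitor and 50.2, 58.6, 51.4 and 51.0 CPM in DMSO (edgeR adjusted p = 0.00929, and 0.122 with the term).

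Of 21 transcription factors of sensory neuron identity, 5 fell and 1 rose, against 7.24% and 5.78% of all tested genes. With the term for sample number 1 was called, Tlx3. The count that fell was 3 without inhibitor replicate 3. Tlx3, a homeobox factor of developing sensory neurons, had 37.9, 39.4, 36.6 and 45.8 CPM in the inhibitor libraries, against 58.4, 58.1, 67.5 and 72.6 CPM in the DMSO libraries (log2 change -0.68 ± 0.11, edgeR adjusted p = 0.000741). Hoxd1, a homeobox factor of nociceptors, had 16.0, 12, 9.33 and 21.0 CPM after the inhibitor and 30.4, 38.4, 25.1 and 28.4 CPM in DMSO (edgeR adjusted p = 0.00313, and 0.076 with the term). Runx1, which directs the choice among nociceptor types, rose to 30.5 ± 5.65 CPM, against 17.8 ± 2.57 CPM in DMSO (SD, n = 4 each, edgeR adjusted p = 0.0112, and 0.208 with the term). The general factors Isl1, Pou4f1 and Prdm12 were not called, with log2 changes of 0.08 ± 0.063, -0.08 ± 0.073 and 0.06 ± 0.086. Of the growth factor receptors, Ret, the GDNF co-receptor, fell to 593 ± 46.2 CPM, against 784 ± 64.1 CPM in DMSO (edgeR adjusted p = 0.00229).

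Of the voltage-gated channels, 3 of 11 sodium, 5 of 28 potassium and 1 of 15 calcium channel genes fell, and 1, 3 and 2 rose. Over all tested genes 7.24% fell and 5.78% rose. These counts are small, and whether they differ from those shares was not tested. With the term for sample number 2 sodium and 2 potassium channel genes were lower and 2 potassium channel genes higher. Without inhibitor replicate 3 or DMSO replicate 2 or 4, 3 potassium channel genes fell. Kcnab1, an auxiliary subunit of Kv1 channels, had 24.1, 33.9, 24.5 and 32.5 CPM in the inhibitor libraries, against 56.4, 56.9, 54.1 and 59.0 CPM in the DMSO libraries (log2 change -0.97 ± 0.15, edgeR adjusted p = 0.000852). Kcnc4, which encodes Kv3.4, a fast channel of nociceptors, fell to 89.9 ± 7.95 CPM, against 151 ± 14.0 CPM in DMSO (SD, n = 4 each, edgeR adjusted p = 0.000314). Kcnh1, of the ether-à-go-go family, had 43.8, 42.2, 48.4 and 38.2 CPM after the inhibitor and 26.3, 28.1, 28.1 and 27.6 CPM in DMSO, so it rose without overlap (edgeR adjusted p = 0.00374). Kcnab1, Kcnc4 and Kcnh1 kept their calls with the term for sample number.

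Of 19 circadian clock genes, 3 rose and 1 fell, against 5.78% and 7.24% of all tested genes, so the decrease is no more than the background. Per3, a repressor of the clock, had 7.33, 8.31, 8.64 and 8.0 CPM in the inhibitor libraries, against 4.17, 4.13, 3.36 and 3.54 CPM in the DMSO libraries (log2 change 1.09 ± 0.12, edgeR adjusted p = 0.000118, and 0.00732 with the term for sample number). Its paralog Per2, which growth factor and CREB signalling are also known to induce, had 17.4, 21.1, 11.7 and 21.3 CPM after the inhibitor and 37.4, 46.0, 26.1 and 30.5 CPM in DMSO. Per3 and Per2 moved in opposite directions, and the call of Per2 (edgeR adjusted p = 0.0136) was lost without DMSO replicate 2 (0.0507) and with the term (0.0803).

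**Figure D3:**
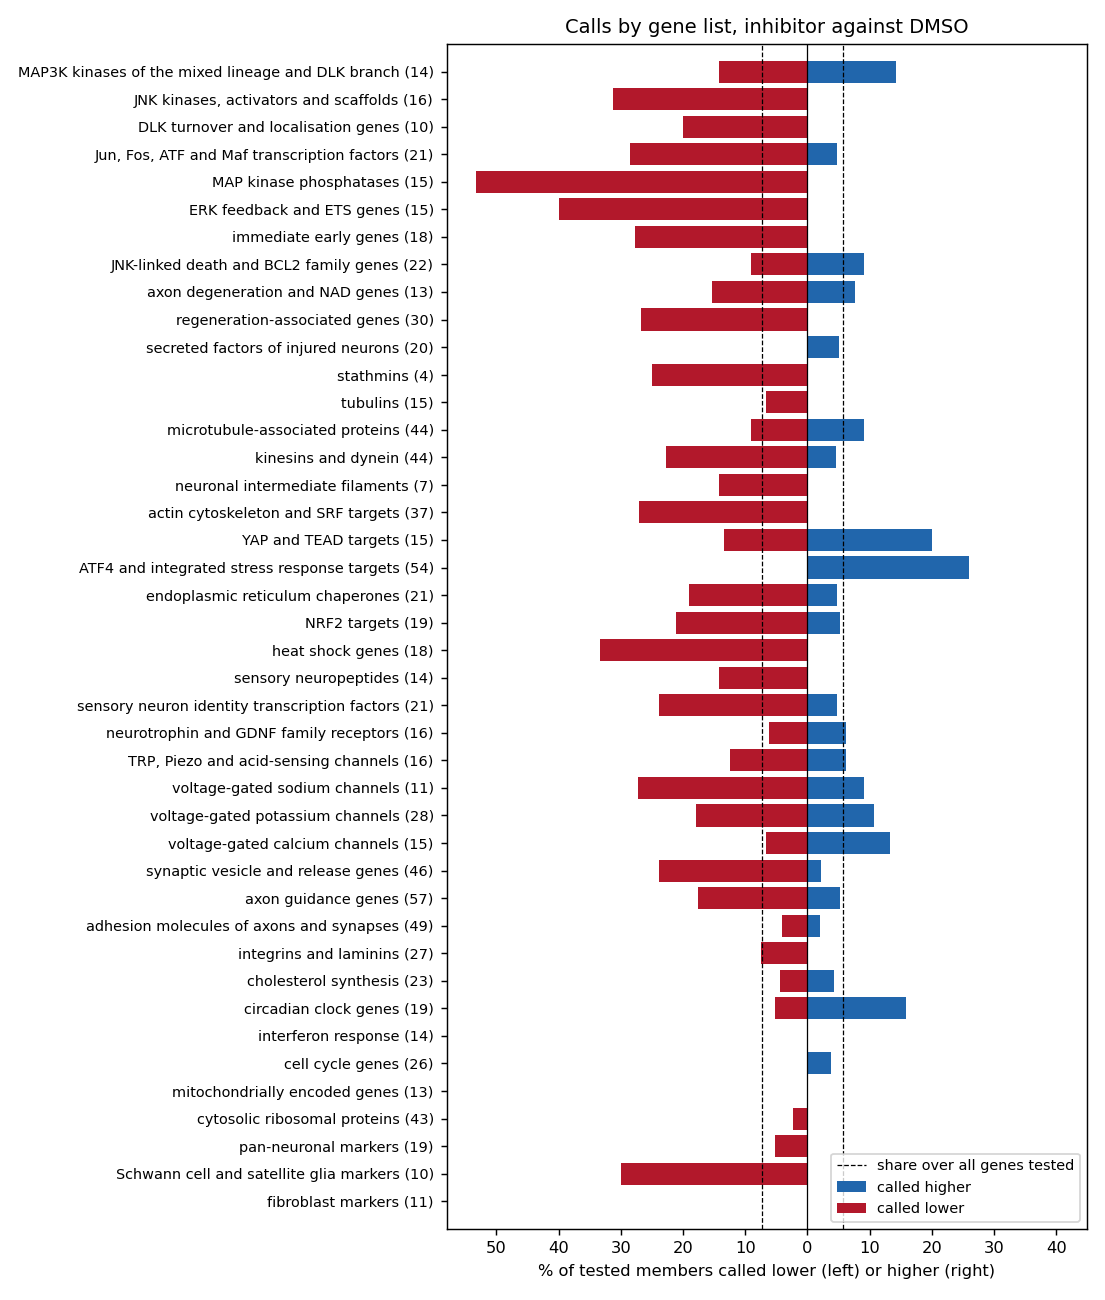
Share of tested members of the gene lists called lower (red, to the left) or higher (blue, to the right) after the inhibitor. The lists of endothelial, macrophage, and pericyte and smooth muscle markers are not drawn. The number tested stands in parentheses and dashed lines mark the shares over all tested genes, 7.24% and 5.78%. MAP kinase phosphatases (8 of 15) and ERK feedback and ETS genes (6 of 15) have the highest shares called lower, and ATF4 and integrated stress response targets (14 of 54) the highest share called higher.

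Annotated classes of RNA differed in the balance of their calls. Over all tested genes 5.78% rose and 7.24% fell. Of 14106 protein-coding genes 790 rose (5.6%) and 1344 fell (9.53%), whereas of 541 long intergenic noncoding RNAs 55 rose (10.2%) and 4 fell (0.739%). Of 1490 transcripts marked as still to be experimentally verified, 114 rose (7.65%) and 4 fell (0.268%). Among 153 sense-intronic transcripts 14 rose (9.15%) and 1 fell (0.654%). The median log2 change was 0.25, 0.44 and 0.41 in these 3 noncoding classes and -0.02 in protein-coding genes. With nocodazole in all cultures, the same 3 classes counted 103 and 58, 141 and 159, and 26 and 15 genes higher and lower after the inhibitor, with medians of 0.07, -0.04 and -0.07. Over all tested genes 17.7% were higher and 16.2% lower in that pair. With the term for sample number the calls were 8 and 1 for intergenic, 0 and 0 for unverified and 0 and 0 for sense-intronic transcripts by edgeR. With single libraries left out, the number higher ran from 26 (without DMSO replicate 4) to 61 (without inhibitor replicate 4) for intergenic, from 21 to 217 without the same libraries for unverified, and from 0 (without inhibitor replicate 2 or DMSO replicate 4) to 23 (without inhibitor replicate 4) for sense-intronic transcripts. In every inhibitor library the nuclear RNA Malat1 was above all DMSO libraries, and the part of nuclear or unspliced RNA in these counts was not tested. Antisense transcripts rose in 5.51% and fell in 1.08% of 1017 tested without nocodazole, so their increases were near the share over all tested genes. Transcripts of bidirectional promoters (15.3% and 2.04%) and processed transcripts (8.53% and 1.76%) lay above that share. As the use of strand in counting is not given, reads of intronic and antisense transcripts cannot be told apart from those of the host gene.

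The 4 inhibitor libraries did not respond to the same degree. For each library in turn, genes were called without it, and its position was expressed as a percentage of the change in the other 3, where 0% is the DMSO mean. The median position was 87.7% over 1860 genes for replicate 1, 116% over 1242 genes for replicate 2, 113% over 1288 genes for replicate 3 and 51.9% over 3077 genes for replicate 4. Replicate 4 lay on the same side of the DMSO mean as the others for 95.7% of its 3077 genes. Its median position was 51.6% over lower and 52.9% over higher genes. On the first principal component of the 8 libraries, with 39.1% of the variance, replicates 1 to 4 scored -25.3, -51.0, -34.4 and 0.58, against 11.1, 26.1, 23.2 and 49.7 for the DMSO libraries. Without replicate 4, 1448 genes were higher and 1639 lower, and 346 and 223 of them by at least 2-fold.

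**Figure D4:**
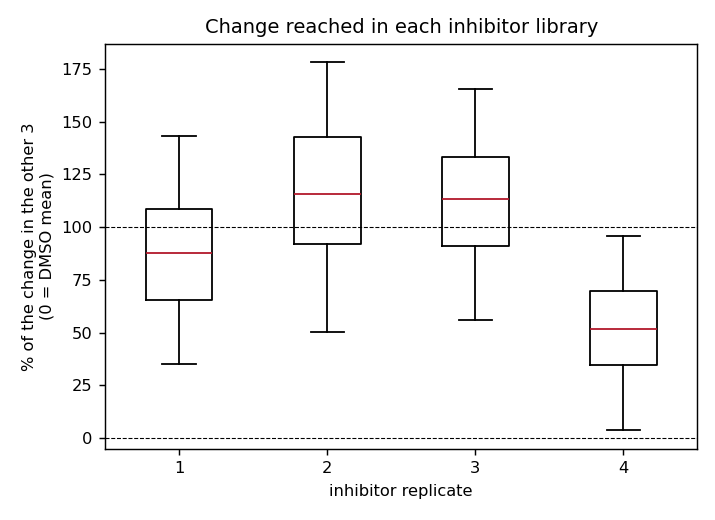
Position of each inhibitor replicate as a percentage of the change in the other 3 inhibitor libraries, for genes called without that replicate (red line, median; box, quartiles; whiskers, 5th to 95th percentile); dashed lines mark the DMSO mean at 0 and the mean of the other 3 at 100. The median of replicate 4 is 51.9%, against 87.7 to 116% in the others.

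The inhibitor change was measured a second time in cultures that also held nocodazole, with 4 other libraries of each kind. The fit of all 16 libraries used 1 shared estimate of the spread, so calls in the 2 pairs are not independent. Without replicate 1 of the cultures given nocodazole but no inhibitor, 88.2% of the genes called without nocodazole were still called. In the pair with nocodazole, 3396 genes were higher (17.7%) and 3098 lower (16.2%). With the term for sample number these counts were 2679 and 2453. Of the 1387 genes lower without nocodazole, 1109 (80.0%) were also lower with it and 678 (48.9%) were called lower. Of the 1107 genes higher without nocodazole, 790 (71.4%) were also higher with it, 472 (42.6%) were called higher, and 94 (8.49%) were called in the opposite direction. Of the lower genes, 65 (4.69%) were called in the opposite direction. Among the genes at least 2-fold lower, 138 of 147 were lower in both (93.9%) and 112 were called in both (76.2%). Among those at least 2-fold higher, 156 of 222 were higher in both (70.3%), 84 were called in both (37.8%) and 17 were called in the opposite direction (7.66%).

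The difference of the 2 inhibitor changes was itself tested, and it was called for 3587 of all genes (18.7%), for 385 of the higher genes and for 381 of the lower genes. With the term for sample number it was called for 552 of all genes, and for 194 with libraries numbered up to 13 alone. In the genes called lower, the change was larger with nocodazole for 108 of the 381 and smaller or turned round for 273. These genes were picked by their change without nocodazole, which also enters the difference. The split therefore cannot show that the inhibitor change was weaker with nocodazole. Jun, Dusp1 and Dusp16 fell further with nocodazole present, by 7.48, 5.99 and 3.90 on the log2 scale, which differed from the change without it (adjusted p of the difference 0.0105, 0.000465 and 0.000854). With the term for sample number that adjusted p was 0.0957 for Jun, which was then not called, 0.0139 for Dusp1 and 0.0262 for Dusp16. Plat fell by 3.46 with nocodazole and by 1.22 without it (adjusted p of the difference 1.78e-06, and 0.000558 with the term). The ERK feedback genes Spred2, Spred3 and Etv5 fell by 1.92, 1.77 and 1.38 with nocodazole, and the differences from the change without it were not called, at -0.30 ± 0.33, -0.05 ± 0.40 and 0.13 ± 0.46 (SE).

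Other genes differed in size or direction between the pairs. Kcnc4 changed by 0.03 ± 0.10 on the log2 scale with nocodazole, against -0.75 ± 0.10 without it, and Kifc3 by 0.10 ± 0.12, against -0.84 ± 0.12 (adjusted p of the difference 0.00163 and 0.00144). The difference was not called for Kcnc4 with the term for sample number, at an adjusted p of 0.0941, against 0.0478 for Kifc3. Hoxd1 rose by 0.71 with nocodazole, whereas it fell by 1.06 without it (adjusted p of the difference 0.000599, and 0.0411 with the term). Sesn2 and Ero1l fell by 0.78 and 0.50 with nocodazole, against increases of 0.66 and 0.60 without it (adjusted p of the difference 0.000604 and 0.000428, and 0.041 and 0.0411 with the term). Fam84a, the clearest increase without nocodazole, rose by 3.40 ± 0.12 with it, and Gabrb1, Jag1 and Per3 rose by 1.45, 1.48 and 1.28, with no called difference between the pairs for these last 3.

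**Figure D5:**
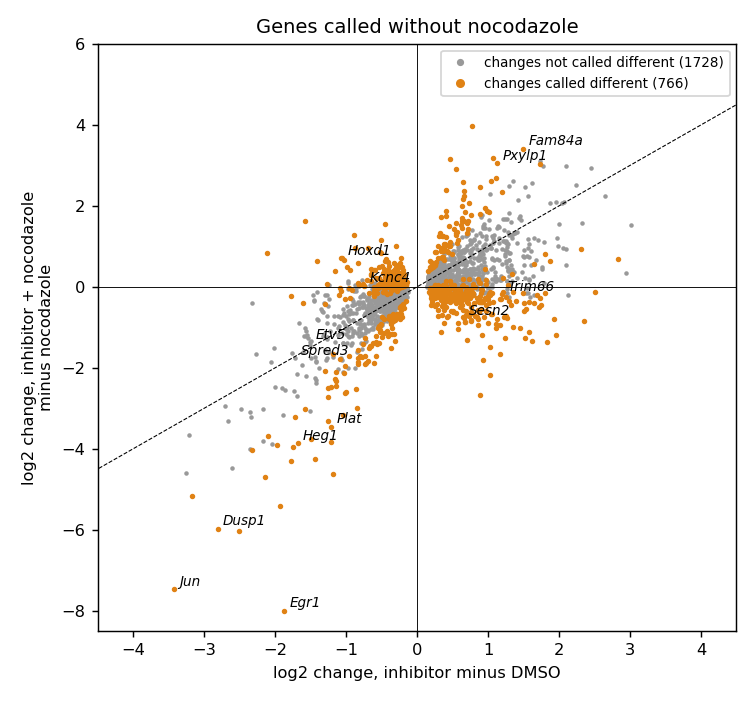
Log2 change of the inhibitor in cultures with nocodazole (vertical) against that in cultures without it (horizontal) for the 2494 genes called without nocodazole; orange points are genes whose 2 changes were called different (766), the dashed line marks equal changes and 1 gene lies beyond the axes. Jun, Dusp1, Plat and Egr1 lie below the line, Fam84a and Pxylp1 above it, and Hoxd1, Kcnc4, Trim66 and Sesn2 lie near or across the horizontal zero line.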

How the data were processed

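Total RNA from the cultures was sequenced after removal of ribosomal RNA, per the labels' protocols. The deposited values are whole-number counts for each gene in each library; the submitters' processing notes name STAR, Salmon and GRCm39, with no roles or versions, so whether these are read counts or rounded estimates, and whether strand was used, is not given in the sources used here. All 16 libraries were fitted together in edgeR 4.0.16 (quasi-likelihood test, TMM scaling, its expression filter, 1 mean per group) in R 4.3.3, with Benjamini-Hochberg adjustment over 19156 genes and calls below 0.05. CPM use TMM-scaled library sizes. DESeq2 1.42.0 was an alternative. The procedure was tested on simulated data. Of 55356 identifiers, 52080 matched a GENCODE M21 symbol. Named genes were the 15 with the largest called change in each direction (at least 5 CPM, groups apart), the 10 with the smallest p, the key genes of the lists, up to 4 called members per list, and up to 10 that differed with nocodazole. Members and lists were chosen with earlier results of these data known.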

Additional observations from a re-analysis of the deposited data

Results flagged for a closer look

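In 13 of 168 gene and treatment groups of 4 libraries, 1 library lay far from the other 3, where chance gives about 1 in 20. Inhibitor replicate 4 was the high one for Jun (21.1 CPM), Jund (118.7 CPM), Stmn4 (50.2 CPM), Dusp8 (94.5 CPM), Rapgef6 (98.6 CPM), Scg2 (46.9 CPM) and Rps6kl1 (23.1 CPM). Inhibitor replicate 1 was high for Map3k12 (127 CPM). In the DMSO group single libraries stood apart for Cacna1e (64.0 CPM), Isl1 (40.1 CPM), Mapk9 (197 CPM), Ret (688 CPM) and Scg2 (58.6 CPM), and for the summed pericyte and smooth muscle markers (6.40 CPM).

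The inhibitor change with nocodazole minus that without it was called by edgeR at an adjusted p under 0.05 for 42 of 84 genes examined. Over all tested genes the share was 18.7%. The genes examined were named for their changes, in 1 rule for this difference itself, so the count cannot be set against that share. On the log2 scale this difference was -6.13 for Egr1, -4.41 for Atf3, -4.05 for Jun, -3.45 for Tnfrsf12a, -3.24 for Fos, -3.17 for Dusp1, -2.25 for Plat, -2.15 for Ddit3 and -2.0 for Gprc5c. It was -1.92 for Dusp16, -1.71 for Creb5, -1.67 for Bbc3, -1.57 for Stmn4, -1.47 for Vgf, -1.45 for Bcl2l11, -1.44 for Sesn2, -1.38 for Trim66, -1.27 for Cacna1e, -1.24 for Zyx, -1.10 for Ero1l, -1.09 for Bcl2 and -1.02 for Kctd12. Smaller negative differences were -0.68 for Rapgef6, -0.64 for Atp8b2, -0.55 for Vim, -0.48 for Dusp8 and -0.42 for Map3k9. With the term for sample number, calls were lost for Jun, Fos, Ddit3, Gprc5c, Creb5, Stmn4, Vgf, Trim66, Cacna1e, Bcl2, Rapgef6, Dusp8 and Map3k9. Their adjusted p by edgeR then ran from 0.0827 (Rapgef6) to 0.668 (Vgf), and the other negative differences stayed called.

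The difference was positive for Pxylp1 (1.93), Fam84a (1.91), Hoxd1 (1.77), Elavl4 (1.31), Kifc3 (0.94), Prdm12 (0.91), Kcnc4 (0.78), Rbfox3 (0.69), Isl1 (0.66), Pou4f1 (0.57), Sh3rf1 (0.54), Map2k4 (0.36), Mbp (0.36), Cnp (0.34) and Map3k12 (0.31). With the term for sample number, calls were lost for Kcnc4, Rbfox3, Pou4f1, Sh3rf1, Map2k4, Mbp, Cnp and Map3k12. Their adjusted p by edgeR then ran from 0.0729 (Pou4f1) to 0.573 (Map3k12), and the other positive differences stayed called.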

How the results depend on the processing

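Leaving out 1 library at a time gave 490 to 1448 higher and 752 to 1639 lower genes, and at the 2-fold limit 116 to 346 and 92 to 223. Without a filter on low counts 646 genes were higher. With at least 1 CPM required in 4 libraries, 110 were at least 2-fold higher. With a term for sample numbers over 13, which was chosen after seeing the data, 133 were higher and 240 lower, 40 and 60 at the 2-fold limit, and 552 differed with nocodazole. With libraries numbered up to 13 alone, also chosen after seeing the data, 4 inhibitor libraries stood against 1 DMSO library, which was assumed to vary like the other groups; edgeR called 0 higher and 0 lower, 0 and 0 at the 2-fold limit (1676 genes at an unadjusted p under 0.05), while 194 differed with nocodazole and 1653 were higher and 1528 lower with nocodazole. There Egr1 turned to 0.35 on the log2 scale. The only DMSO library left, replicate 1, had 0.280 CPM of Egr1, against an inhibitor mean of 0.360 CPM. The cause of the changed counts was not tested. A replicate block gave 1102 higher and 1379 lower genes, 219 and 150 at the 2-fold limit, 3457 that differed with nocodazole, and 3378 higher and 3036 lower with it; same-numbered libraries of the 2 groups correlated at 0.0163, -0.0527, 0.13 and 0.217 in their deviations, replicates 1 and 2 did not correlate best with their own number, and the samples were not treated as pairs. DESeq2 gave 1313 and 1806 genes, and upper quartile scaling 1433 and 1098.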
